A study of Mus musculus with 16 samples.

Results

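Neurexins, neuroligins and LRRTM proteins are adhesion molecules that meet across the synaptic cleft. The genes described here are Nrxn2 and Nrxn3 (neurexins), Nlgn1, Nlgn2 and Nlgn3 (neuroligins) and Lrrtm1, Lrrtm2, Lrrtm3 and Lrrtm4 (leucine-rich repeat transmembrane proteins). They were chosen by symbol from the gene table of the study and make up 9 of its 36930 entries. Of the 9 genes, 6 had values in all 16 pups, and Lrrtm1, Lrrtm2 and Lrrtm3 had no value in any pup.

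Neurexins sit in the presynaptic membrane, where long and short forms are made from separate start sites of the same gene and are spliced in many ways. Their postsynaptic partners include neuroligins, which bind the same neurexin surface as LRRTMs. Neuroligin-1 is found mainly at excitatory synapses and neuroligin-2 at inhibitory synapses, while LRRTMs are linked to excitatory synapses. In the cortex of newborn rodents these contacts are only being formed, and the genes are studied as organizers of synapses.

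Transcripts were measured by mRNA sequencing of brain cortices of C57BL6 mice at P7. The study asked how stimulation of sensory neurons in the first days of life bears on the brain, and compared 8 Avil-ChR2 with 8 ChR2-flfl pups. All pups carried the floxed gene of the light-gated channel ChR2 fused to tdTomato in the Rosa26 locus, and all received blue light in a chamber for 1 h a day on P1 to P5. In Avil-ChR2 pups Cre recombinase under control of advillin (Avil), a gene of peripheral sensory neurons, switches ChR2 on, and the Cre-negative ChR2-flfl pups of the same breedings served as controls. The cortex was analyzed as bulk tissue, in which fewer cells of a type and less RNA per cell cannot be told apart.

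The deposited values are CPM (reads of a gene as a share of all reads, scaled with TMM factors), and a gene without reads in a pup was left empty. The reads behind them summed to 30549126 to 48711134 per pup. Avil was at 0.825 to 1.46 CPM in ChR2-flfl and at 37.3 to 46.4 CPM in Avil-ChR2 pups, so that no pup went against its genotype label. Which cells of the cortex gave the Avil reads, and whether ChR2 was made there, was not tested. The Y-linked gene Ddx3y was at 54.7 CPM in Avil-ChR2 replicate 4, the library labelled female, while it was at 50.7 CPM or more in the 7 pups labelled male and at 2.57 CPM or less in the other 8 pups labelled female. Eif2s3y, Kdm5d and Uty were likewise at 64.6, 22.5 and 17.9 CPM in this library. Cortical identity markers (Emx1, Tbr1, Neurod2, Neurod6, Bcl11b and Cux2) were detected in all pups and summed to 563 to 662 CPM in ChR2-flfl and 575 to 652 CPM in Avil-ChR2 cortices. Markers of striatum summed to 115 to 164 CPM over all pups, and those of choroid plexus to 1.91 to 2.73 CPM in ChR2-flfl and 1.70 to 3.54 CPM in Avil-ChR2 cortices.

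The empty entries were described first, because they decide which of the genes can be read from these data. Lrrtm1 (chromosome 6 of GRCm38, 77242480 to 77259915, plus strand) lies wholly inside Ctnna2 (76881637 to 77979694, minus strand). Lrrtm2 (chromosome 18, 35209003 to 35215024, minus strand) lies inside Ctnna1 (35118912 to 35254775, plus strand), and Lrrtm3 (chromosome 10, 63928497 to 64090255, minus strand) lies inside Ctnna3 (63430098 to 65005395, plus strand). Each of the 3 genes thus lies within a catenin gene that is read from the opposite strand. Lrrtm4 (chromosome 6, 80018859 to 80810162, plus strand) is not surrounded by another gene of the table and is the LRRTM gene with values.

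This position went with missing values over the whole table. Of the 5866 entries that lie wholly inside another entry, 5540 (94.4%) were empty in all 16 pups, in contrast to 3152 of the 31064 other entries (10.1%). The share was 93.6% of the 3451 entries inside a gene on the opposite strand and 95.6% of the 2415 entries inside a gene on the same strand. Among the entries with a Gene Ontology annotation, 88.6% of the nested and 8.61% of the other entries were empty. Further synaptic adhesion genes in this position were Flrt1 and Flrt3, Lrrc4 and Lrfn4, and they were empty too. The empty entries of Lrrtm1, Lrrtm2 and Lrrtm3 were therefore not read as a lack of expression.

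The surrounding catenin genes code for alpha-catenins, which link cadherins to the actin cytoskeleton. Ctnna2, the neuronal form, had 343 ± 8.20 CPM in ChR2-flfl and 345 ± 3.14 CPM in Avil-ChR2 cortices (SD, n = 8 each). Ctnna1 had 129 ± 9.31 and 126 ± 4.42 CPM (SD, n = 8 each), and Ctnna3 had 29.3 ± 1.59 and 29.7 ± 2.31 CPM (SD, n = 8 each). Their log2 differences between Avil-ChR2 and ChR2-flfl were 0.0097, -0.027 and 0.021, and their adjusted p in the limma test lay between 0.98 and 0.99. How much of these values came from reads of the LRRTM genes inside them was not tested.

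**Figure D1:**
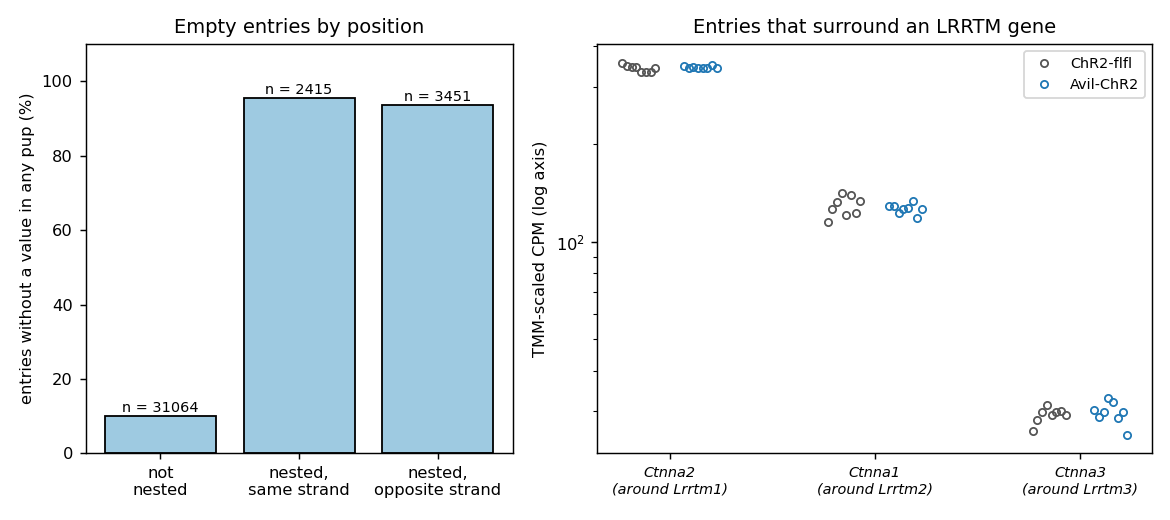
Left, percentage of table entries without a value in any of the 16 pups, for 31064 entries that do not lie inside another, 2415 inside a gene on the same strand and 3451 inside a gene on the opposite strand. Right, CPM (log axis) of the catenin genes around Lrrtm1, Lrrtm2 and Lrrtm3, with 1 circle per pup, and both genotypes cover much the same range for each catenin.

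The bases before the annotated start sites of Lrrtm1 and Lrrtm3 also lie inside the catenin genes, and they are shown as a description. Whether reads from both strands were counted for the catenins was not tested. The 250 bases upstream of each start were taken from RefSeq on GRCm38.p6 and are written on the strand of the LRRTM gene, with CpG dinucleotides in capitals. The windows are chr6:77242227-77242476 (plus strand) and chr10:64090256-64090505 (minus strand).
Lrrtm1: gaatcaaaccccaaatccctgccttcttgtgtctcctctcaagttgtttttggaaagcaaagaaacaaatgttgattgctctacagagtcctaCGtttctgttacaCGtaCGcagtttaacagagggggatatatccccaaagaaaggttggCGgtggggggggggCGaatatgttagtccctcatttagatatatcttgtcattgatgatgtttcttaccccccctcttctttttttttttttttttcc
Lrrtm3: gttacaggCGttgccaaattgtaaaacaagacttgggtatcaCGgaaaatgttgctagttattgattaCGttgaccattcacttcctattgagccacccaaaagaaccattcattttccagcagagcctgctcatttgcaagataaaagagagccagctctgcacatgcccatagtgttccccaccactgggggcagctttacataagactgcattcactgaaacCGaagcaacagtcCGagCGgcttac
The Lrrtm1 window has 5 CpG and the Lrrtm3 window 6, against a median of 6 over 32851 such windows of all genes. Neither holds the TATA box letters TATAAA or the GC box letters GGGCGG on either strand, which 12.4% and 32.7% of all windows do.

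Nrxn3 was the neurexin with the lowest unadjusted p between the genotypes. It lies on chromosome 12 from 88722865 to 90334935 on the plus strand and was among the candidate genes that the study had picked on these pups, so that its difference is not independent evidence. In ChR2-flfl cortices it ranged from 151 to 168 CPM with a median of 160.1, and in Avil-ChR2 cortices from 140.1 to 155 CPM with a median of 146. The mean of ChR2-flfl was not reached by any of the 8 Avil-ChR2 pups, 6 of which lay under the lowest ChR2-flfl pup, and 5 ChR2-flfl pups exceeded the highest Avil-ChR2 pup. The groups overlapped only in the small range between 151 and 155 CPM.

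The means of Nrxn3 were 159 ± 5.97 CPM (SD, n = 8) and 147 ± 6.09 CPM (SD, n = 8), and the ratio of the geometric means corresponds to a difference of -7.74%. The log2 difference was -0.12 (SE 0.029) with a 95% interval of -0.18 to -0.055, the limma adjusted p over all genes was 0.72, and the two-sided exact permutation test gave an unadjusted p of 0.0022. In pups 26 to 33 the genotypes did not overlap, with at least 151 CPM in ChR2-flfl and at most 149.8 CPM in Avil-ChR2 pups (exact p = 0.0286, the smallest that 4 against 4 pups allow). The share of all genes without overlap in this run was not counted, and so few pups separate far more easily than all pups do. In pups 35 to 42 they overlapped (exact p = 0.0857). Between 4677 and 8037 reads per pup were behind these values. No overlap between all pups of both genotypes was found for 0.0283% of all genes, and Nrxn3 was not one of them.

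**Figure D2:**
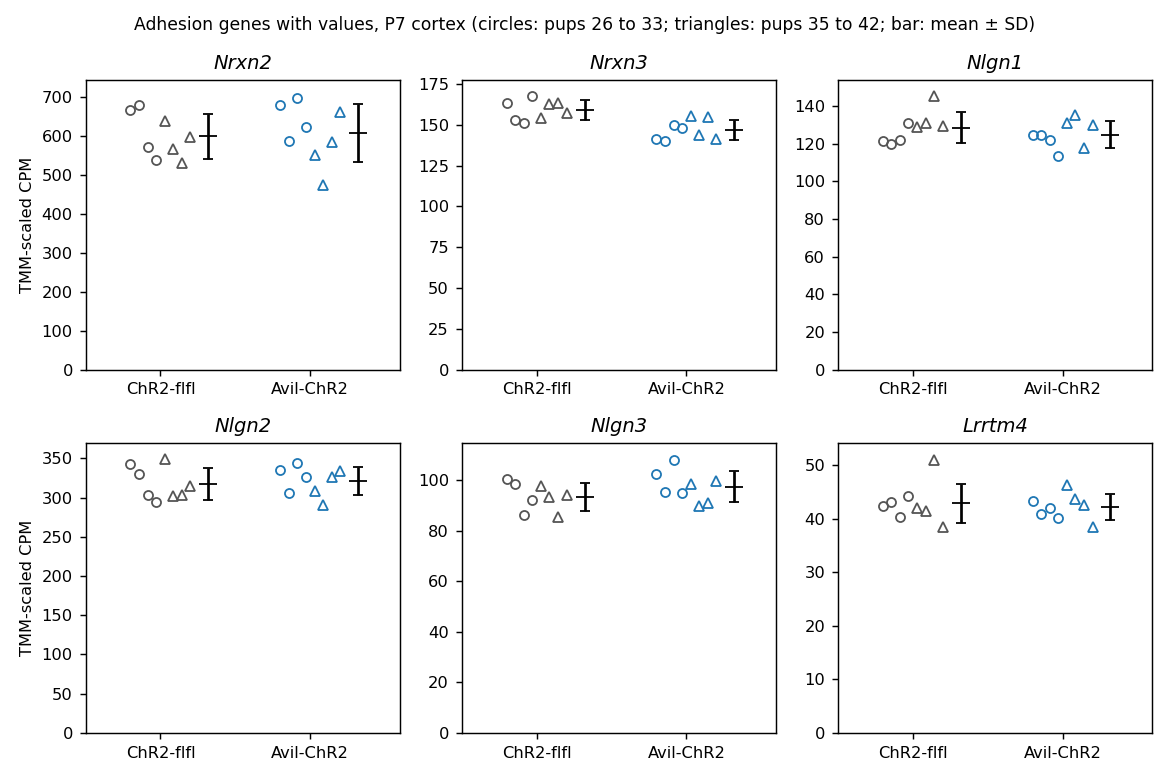
CPM of the 6 genes with values in each pup, from 0 on a linear axis (circles, pups 26 to 33; triangles, pups 35 to 42), with the mean ± SD of 8 pups per genotype beside them. For Nrxn3 every Avil-ChR2 point lies under the mean of ChR2-flfl, 159 CPM, and for the other 5 genes the genotypes overlap over most of their range.

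The Nrxn3 entry has distant annotated start sites, and its single value cannot separate transcripts that may begin there. Of the windows that RefSeq gave before its starts, the first and the last are shown as examples of starts that a single value per gene cannot separate. The entry begins upstream of both, so they do not frame all its starts. Whether either annotated start is a true start of transcription, or is used in these cortices, was not tested. The first window ends in a stretch rich in c and t followed by ag. Whether it marks an exon edge inside a longer transcript was not tested. The windows are chr12:88794254-88794503 and chr12:89812233-89812482 (plus strand, CpG in capitals), and their start sites lie 71639 and 1089618 bases into the entry.
Nrxn3 first window: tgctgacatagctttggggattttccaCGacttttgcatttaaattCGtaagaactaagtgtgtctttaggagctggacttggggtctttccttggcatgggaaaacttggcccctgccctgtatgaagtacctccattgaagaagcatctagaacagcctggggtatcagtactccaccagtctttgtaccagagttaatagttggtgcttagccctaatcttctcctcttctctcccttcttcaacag
Nrxn3 last window: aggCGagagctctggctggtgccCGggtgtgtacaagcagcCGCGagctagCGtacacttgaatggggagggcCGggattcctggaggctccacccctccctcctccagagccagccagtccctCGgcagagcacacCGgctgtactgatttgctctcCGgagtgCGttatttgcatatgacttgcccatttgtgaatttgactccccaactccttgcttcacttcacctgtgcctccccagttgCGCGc
The first window has 2 CpG, as many or more of which are found in 81.2% of all windows, and the last has 12, which 33.5% of the windows reach. Neither contains TATAAA or GGGCGG. Which of the starts carried the lower value in Avil-ChR2 cortices was not tested. The 2 entries inside Nrxn3 on the opposite strand, LOC105245023 and Gm34382, were empty in all pups, as were 93.6% of all entries in this position. This was not read as a lack of expression, and whether their reads were counted under Nrxn3 was not tested.

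Nrxn2 (chromosome 19, 6418738 to 6533217, plus strand) varied most between pups. It ranged from 531 to 681 CPM with a median of 585 in ChR2-flfl, and from 475 to 699 CPM with a median of 606 in Avil-ChR2 cortices. The lowest and the highest pup were both Avil-ChR2, and the ChR2-flfl pups lay within their range. The means were 599 ± 57.0 CPM (SD, n = 8) and 608 ± 74.3 CPM (SD, n = 8), a log2 difference of 0.016 with a 95% interval of -0.13 to 0.16 (limma adjusted p = 0.99). The sign was not stable, with 0.080 in pups 26 to 33, -0.047 in pups 35 to 42, and -0.014 when Avil-ChR2 replicate 3 was left out.

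The coefficient of variation of Nrxn2 over the 16 pups was 10.6%, wider than that of 94.7% of the 6443 genes whose mean log2 value reached 5, and whose median was 4.82%. With 17667 to 33726 reads per pup it had the most reads of the 6 genes, not corrected for length. The other coefficients were 5.63% for Nrxn3, 6.04% for Nlgn1, 5.87% for Nlgn2, 6.24% for Nlgn3 and 7.13% for Lrrtm4.

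The neuroligins differed less than their spread between pups. Nlgn1 (chromosome 3, 25431841 to 26332056, minus strand) ranged from 119.6 to 145 CPM with a median of 129 in ChR2-flfl and from 114 to 135 CPM with a median of 125 in Avil-ChR2 cortices. The ranges overlapped for most pups, and 1 ChR2-flfl pup stood above all others. The means were 129 ± 8.13 and 125 ± 7.17 CPM (SD, n = 8 each), with a log2 difference of -0.042 (95% interval -0.13 to 0.042, limma adjusted p = 0.95). The gene overlaps over 104 bp with A830092H15Rik, an entry on the opposite strand that had 6.39 CPM on average.

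Nlgn2 (chromosome 11, 69823123 to 69838377, minus strand) ranged from 295 to 349 CPM with a median of 309 in ChR2-flfl and from 290.3 to 344 CPM with a median of 326 in Avil-ChR2 cortices. Both groups covered nearly the same range. The means were 318 ± 20.54 and 321 ± 18.1 CPM (SD, n = 8 each), a log2 difference of 0.016 (95% interval -0.069 to 0.10, limma adjusted p = 0.99). The sign of this small difference varied, since it was 0.045 for pups 26 to 33 but -0.014 for pups 35 to 42.

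Nlgn3 (chromosome X, 101299179 to 101321350, plus strand) codes for neuroligin-3, which occurs at both kinds of synapse. It ranged from 85.5 to 100.4 CPM with a median of 93.7 in ChR2-flfl and from 90.0 to 108 CPM with a median of 96.9 in Avil-ChR2 cortices. Of the 8 Avil-ChR2 pups, 6 exceeded the mean of ChR2-flfl and 2 its highest pup. The means were 93.5 ± 5.53 and 97.5 ± 6.05 CPM (SD, n = 8 each), a log2 difference of 0.059 (95% interval -0.026 to 0.14, limma adjusted p = 0.95).

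Lrrtm4, a postsynaptic protein that binds heparan sulfate chains of neurexins, ranged from 38.4 to 50.9 CPM with a median of 42.2 in ChR2-flfl and from 38.5 to 46.2 CPM with a median of 42.2 in Avil-ChR2 cortices. The groups overlapped except for 1 ChR2-flfl pup at the upper end. The means were 42.8 ± 3.70 and 42.1 ± 2.39 CPM (SD, n = 8 each), a log2 difference of -0.022 (95% interval -0.12 to 0.077, limma adjusted p = 0.99). Without that pup, ChR2-flfl replicate 7, the log2 difference was 0.014. The entries LOC105244845 and Gm32091 inside Lrrtm4 were empty in all pups, as were 94.4% of all entries inside another. This was likewise not read as a lack of expression.

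Of the 6, Nrxn3, Nlgn1 and Lrrtm4 (3 genes) were lower in Avil-ChR2 cortices and the other 3 higher. Their median log2 difference was -0.0032, against 0.0020 over all 21183 genes tested. In the limma test 0 of the 6 had an adjusted p under 0.05, which 0.00944% of all genes reached. At an unadjusted p under 0.05, 1 of the 6 genes was lower, which was Nrxn3, and 0 were higher, where 3.46% of all genes were lower and 1.95% higher, 5.41% in all. Nrxn3 kept an unadjusted p under 0.05 in all 30 alternative analyses, with log2 differences from -0.13 to -0.084 and adjusted p of 0.29 or more. Each of the other 5 genes passed in 0 of the 30.

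**Figure D3:**
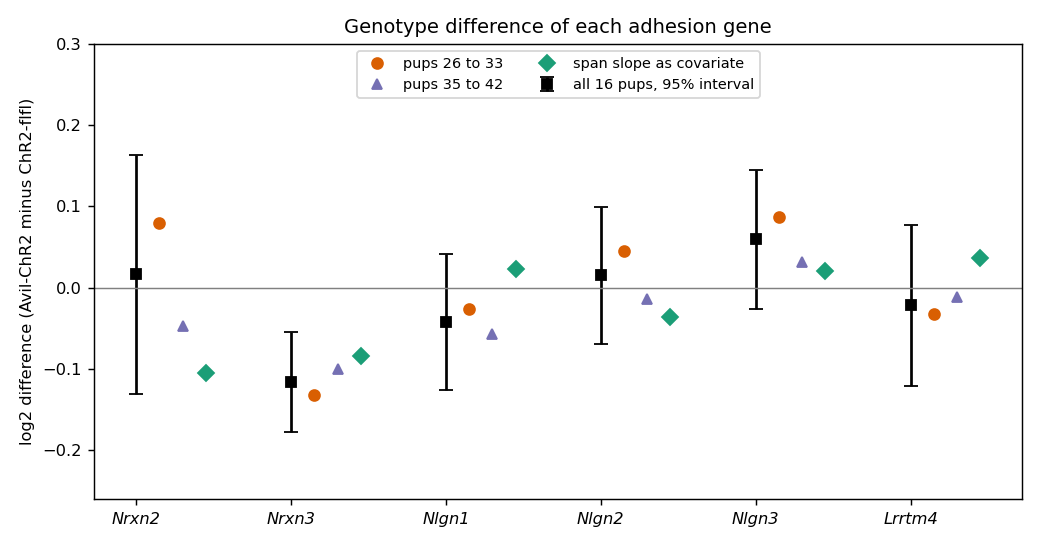
Log2 difference between Avil-ChR2 and ChR2-flfl cortices of each gene, with its 95% interval over 16 pups (squares), within pups 26 to 33 (circles), within pups 35 to 42 (triangles) and with the pups' slopes on gene span as covariate (diamonds). The interval of Nrxn3, -0.18 to -0.055, is the only one of the 6 that does not include 0.

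The genes differ widely in the stretch of DNA they span. Nlgn2 (15255 bp), Nlgn3 (22172 bp) and Nrxn2 (114480 bp) were higher in Avil-ChR2 cortices, while Lrrtm4 (791304 bp), Nlgn1 (900216 bp) and Nrxn3 (1612071 bp) were lower. Among all genes whose mean log2 value reached 0, the median log2 difference was 0.023 for the 3576 genes under 10 kb and -0.039 for the 554 genes over 300 kb, of which 74.5% were lower. The slope of log2 CPM on gene span was then fitted in every pup and used as a covariate. With it the log2 difference of Nrxn3 was -0.084, and that of 4 genes changed its sign, with -0.10 for Nrxn2, 0.023 for Nlgn1, -0.037 for Nlgn2 and 0.036 for Lrrtm4. The slopes, in log2 CPM per 10-fold span, ranged from 0.87 to 0.97 in ChR2-flfl and from 0.86 to 0.93 in Avil-ChR2 pups.

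**Figure D4:**
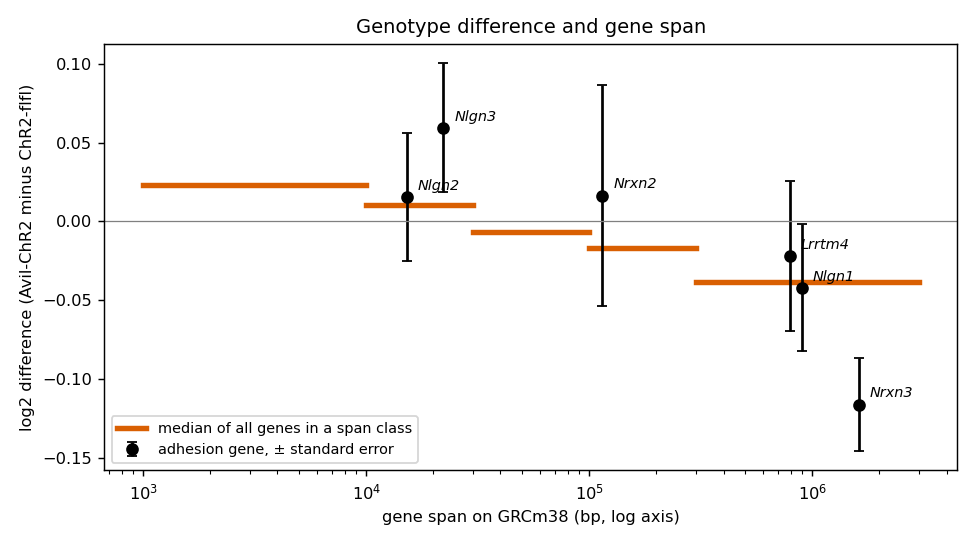
Log2 difference between Avil-ChR2 and ChR2-flfl cortices of the 6 genes (points, ± standard error) against the span of each gene in bp on a log axis, and the median log2 difference of all genes in 5 classes of span (bars; the first and the last class are open towards shorter and longer genes). The 3 genes under 300 kb lie above 0 and the 3 genes over 300 kb below 0, and the class medians run from 0.023 for the shortest to -0.039 for the longest genes.

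Over the pups, Nrxn2, Nlgn2 and Nlgn3 varied together. After centring log2 values within each genotype, Nrxn2 and Nlgn2 had Pearson's r = 0.90 over 16 pups (permutation test with 100000 resamples, p = 1e-05, the smallest it can give, and 0.00015 adjusted over 15 pairs) and Spearman's rho = 0.86 (permutation p = 6e-05, adjusted 0.0009). Their r was 0.86 without the 2 pups farthest from the Nrxn2 median, 0.96 in pups 26 to 33 and 0.90 in pups 35 to 42. Nrxn2 and Nlgn3 had r = 0.81 and rho = 0.81 (permutation p = 0.00021 and 0.00022, adjusted 0.00157 and 0.00165), with r = 0.75 without the 2 farthest pups and 0.84 and 0.75 within the runs of pup numbers. For Nlgn2 and Nlgn3 both r and rho were 0.74 (permutation p = 0.00149 and 0.00142, adjusted 0.00745 and 0.0071), with r = 0.69 without the 2 farthest pups and 0.83 and 0.63 within the runs. These permutation tests set each pair against no relation and not against other gene pairs of the same libraries. Nrxn2 had a higher r with Rnf126 (0.98), and Nlgn2 with Mast1 (0.97), than they had with each other. The share of all genes that correlate as strongly was not counted. Whether the common variation is particular to Nrxn2, Nlgn2 and Nlgn3 was thus not tested.

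Nlgn1 went the other way, with r = -0.58 and rho = -0.61 to Nrxn2 (permutation p = 0.0176 and 0.0139), but the adjusted p of 0.0658 and 0.0522 missed the threshold. This r was -0.49 without the 2 farthest pups and -0.33 and -0.52 within the runs. The remaining pairs had adjusted p of 0.0992 or more for r in the permutation test. The log2 ratio of Nlgn1 to Nlgn2, a pair linked to excitatory and inhibitory synapses, was -1.31 ± 0.15 in ChR2-flfl and -1.36 ± 0.15 in Avil-ChR2 pups (SD, n = 8 each). Its ranges of -1.50 to -1.07 and -1.52 to -1.10 overlapped almost fully. The log2 ratio of Nrxn3 to Nrxn2 was -1.91 ± 0.17 and -2.04 ± 0.20 (SD, n = 8 each), and these ranges overlapped too, from -2.15 to -1.69 and from -2.27 to -1.72.

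**Figure D5:**
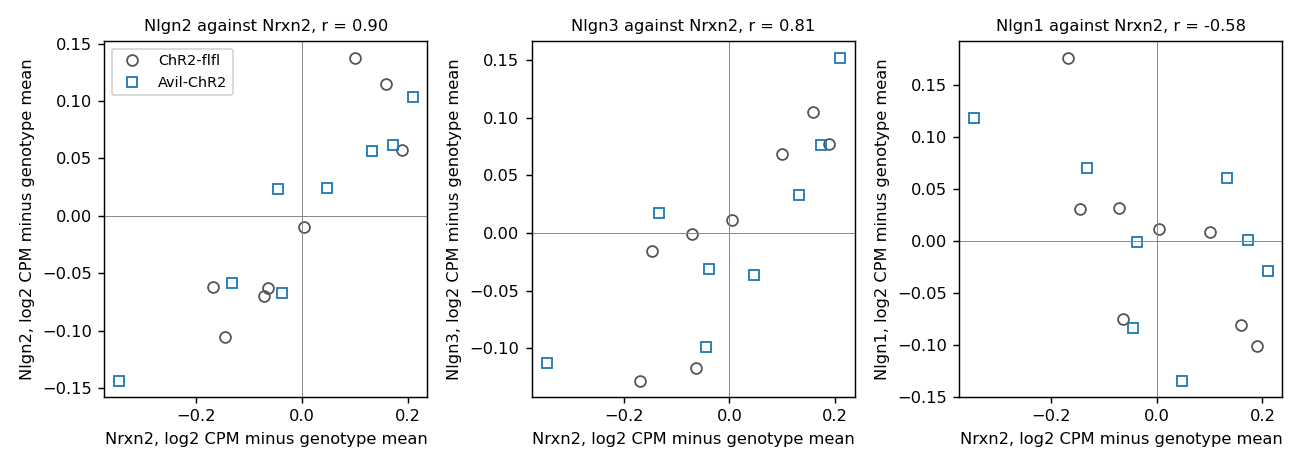
Log2 CPM of Nlgn2, Nlgn3 and Nlgn1 against that of Nrxn2, each minus its genotype mean, with 1 point per pup (circles, ChR2-flfl; squares, Avil-ChR2). Nlgn2 and Nlgn3 are higher in pups with more Nrxn2 (r = 0.90 and 0.81), and Nlgn1 is lower (r = -0.58, adjusted p = 0.0658 in the permutation test).

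The slope on gene span of each pup, centred in the same way, moved with these patterns. It was fitted over all genes of a pup, so that long genes tend to rise and short genes to fall with it by construction. The permutation p set each r against no relation and not against other genes of like span, which was not tested. Its correlation with Nrxn2 was r = -0.73 and rho = -0.71 (permutation p = 0.0013 and 0.00269, adjusted over 6 genes 0.0039 and 0.00998), with r = -0.58 without the 2 farthest pups and -0.41 and -0.86 within the runs. With Nlgn1 it was r = 0.74 and rho = 0.68 (permutation p = 0.00111 and 0.00499, adjusted 0.0039 and 0.00998), with r = 0.51 without the 2 farthest pups and 0.41 and 0.80 within the runs. With Nrxn3 it was r = 0.55 and rho = 0.68 (permutation p = 0.028 and 0.0049, adjusted 0.0336 and 0.00998), with r = 0.72 without the 2 farthest pups and 0.74 and 0.33 within the runs. For Nlgn2, Lrrtm4 and Nlgn3, r was -0.58, 0.56 and -0.43 (permutation p = 0.0183, 0.0238 and 0.0932, adjusted 0.0336, 0.0336 and 0.0932), and rho was -0.53, 0.47 and -0.36 (permutation p = 0.0388, 0.0655 and 0.165, adjusted 0.0582, 0.0786 and 0.165). For Lrrtm4 the relation rested on 2 pups, since r was 0.25 without them, and it was -0.43 for Nlgn2 and -0.093 for Nlgn3. Within the runs, r was -0.21 and -0.88 for Nlgn2, 0.19 and 0.74 for Lrrtm4, and 0.0019 and -0.70 for Nlgn3. Its part in the common variation of Nrxn2, Nlgn2 and Nlgn3 was not tested.

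The genes most like each of the 6 over the 16 pups were sought among 15136 others whose mean log2 value reached 0, by Pearson's r of values centred within genotype. For Nrxn2 it was Rnf126, a ubiquitin ligase, with r = 0.98, and for Nlgn2 it was Mast1, a microtubule-associated kinase, with r = 0.97. Nlgn1 was closest to Mef2c, a transcription factor of neurons and muscle, with r = 0.96. Nlgn3 was closest to Coro1c, an actin-binding coronin, with r = 0.91, and Lrrtm4 to the predicted gene Gm20752 with r = 0.86. Nrxn3 had no match of that strength, and its closest genes were Greb1l with r = 0.83, Letm2 with 0.81 and Phlpp2 with 0.79. All of these are the highest of many correlations over the same libraries, and they are given as a description.

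Set against the length of the longest annotated transcript, Nrxn2 had the highest level, 89.9 ± 8.56 CPM per kb in ChR2-flfl and 91.2 ± 11.1 CPM per kb in Avil-ChR2 cortices (SD, n = 8 each). Nlgn2 followed with 57.1 ± 3.69 and 57.7 ± 3.24 CPM per kb (SD, n = 8 each), and Nrxn3 with 20.1 ± 0.753 and 18.5 ± 0.769 CPM per kb (SD, n = 8 each). The ranges of these 3 genes did not overlap with each other or with those of the remaining genes. Nlgn3, Nlgn1 and Lrrtm4 had 10.9 ± 0.647, 10.9 ± 0.688 and 9.66 ± 0.833 CPM per kb (SD, n = 8 each) in ChR2-flfl cortices, and their ranges of 10.01 to 11.8, 10.1 to 12.3 and 8.67 to 11.5 overlapped. The order depends on the length taken. Over the union of exons Nlgn2 came before Nrxn2, with 54.9 ± 3.55 against 43.4 ± 4.13 CPM per kb (SD, n = 8 each) in ChR2-flfl cortices, and over the median transcript Nlgn1 came before Nlgn3.

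Sex was examined because Nlgn3 is X-linked and both sexes were present in both genotypes. Nlgn3 ranged from 86.1 to 108 CPM with a median of 95.3 in the 9 pups labelled female and from 85.5 to 103 CPM with a median of 94.1 in the 7 pups labelled male. The sexes overlapped over nearly the whole range. The log2 difference of Nlgn3 between males and females was -0.020 with a 95% interval of -0.11 to 0.068, and it was -0.025 without Avil-ChR2 replicate 4. The differences of the other 5 genes lay between -0.032 for Nrxn2 and 0.046 for Lrrtm4, with limma adjusted p of 0.99 or more. With Avil-ChR2 replicate 4 taken as male, as its levels of Ddx3y and Kdm5d and a second list of sexes given by the study have it, the difference was 0.0038 for Nlgn1 in place of 0.039, 0.027 for Lrrtm4 in place of 0.046 and -0.019 for Nrxn2 in place of -0.032. None of the 6 had an unadjusted p under 0.05, which 4.46% of all genes had, and 0.0425% of all genes had an adjusted p under 0.05.

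The interaction of genotype and sex was likewise within the error. Its estimates, the genotype difference in males minus that in females on the log2 scale, ranged from -0.16 for Nrxn2 (95% interval -0.47 to 0.14) to 0.024 for Lrrtm4 (95% interval -0.18 to 0.23), and the limma adjusted p was 0.99 or more for all 6 genes. With Avil-ChR2 replicate 4 taken as male, all 6 estimates were below 0, from -0.13 for Nrxn2 to -0.0040 for Nrxn3, and the limma adjusted p was 0.89 or more. Nlgn1 then had -0.11 in place of -0.039, and Lrrtm4 had -0.015. Over all genes 0 had an adjusted p under 0.05 in limma, a share of 0%, and 912 had an unadjusted p under 0.05, a share of 4.31% that included 0 of the 6. The intervals are wide, and differences between the sexes of the size of the Nrxn3 difference would not be detectable for Nrxn2.

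Further genes of synaptic adhesion were listed by their role and read in the same limma test. Among proteins that bind neurexins or control their binding (neurexophilins, cerebellins, C1q-like proteins, delta glutamate receptors, dystroglycan, calsyntenins and MDGAs), 19 of 19 genes were tested, and 1 was lower and 0 higher at an unadjusted p under 0.05, against 3.46% lower and 1.95% higher over all genes. This was Mdga2, whose protein binds neuroligins and keeps them from neurexins, with 77.02 ± 6.02 CPM in ChR2-flfl and 68.9 ± 2.96 CPM in Avil-ChR2 cortices (SD, n = 8 each; log2 difference -0.16, SE 0.043, limma adjusted p = 0.76). Mdga2 is a long gene, with a span of 756491 bp, and 74.5% of all genes over 300 kb were lower. The median log2 difference of these 19 genes was -0.00023.

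The LAR-type phosphatases form a second presynaptic hub, with Slitrks, netrin-G ligands, SALMs and TrkC as partners. Of the 22 listed genes 20 were tested, and 2 were lower and 0 higher at an unadjusted p under 0.05 (all genes, 3.46% and 1.95%), with a median log2 difference of 0.0031. Ptprd, one of the phosphatases, had 467 ± 41.5 and 432 ± 21 CPM (SD, n = 8 each; log2 difference -0.11, limma adjusted p = 0.87), and Ntrk3, which codes for TrkC, had 147 ± 17.5 and 129.9 ± 7.12 CPM (SD, n = 8 each; log2 difference -0.17, limma adjusted p = 0.82). Both are long genes, with spans of 2270659 and 398867 bp.

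The teneurins bind latrophilins across the cleft, and latrophilins also bind FLRTs. All 4 teneurin genes were among those lower in Avil-ChR2 cortices at an unadjusted p under 0.05 in limma, as were 3.46% of all genes. Of the 10 listed genes of teneurins, latrophilins and FLRTs 8 were tested, 7 were lower, and 4 of them passed an unadjusted p under 0.05, with 0 that passed as higher and a median log2 difference of -0.11. They were Tenm1 with a log2 difference of -0.18, Tenm2 with -0.22, Tenm3 with -0.21 and Tenm4 with -0.15, and their limma adjusted p lay between 0.81 and 0.89. In the two-sided exact permutation test the unadjusted p was 0.016 for Tenm1 and 0.012 for Tenm4, while Tenm2 (p = 0.074) and Tenm3 (p = 0.058) did not pass. Tenm1 had 143 ± 17.1 CPM in ChR2-flfl and 126 ± 6.10 CPM in Avil-ChR2 cortices (SD, n = 8 each). Their spans of 709498 to 1230153 bp put all 4 in the class of the longest genes, whose median was -0.039.

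Among 13 immunoglobulin adhesion genes (SynCAMs, NCAMs, nectins, L1 family and sidekicks), 10 were lower and 3 higher, with a median log2 difference of -0.037. In limma 0 of them passed in either direction at an unadjusted p under 0.05 (all genes, 3.46% lower and 1.95% higher). Their spans ran from 22511 to 974090 bp, and 74.5% of all genes over 300 kb were lower. Whether the split goes with span was not tested. Of 15 intracellular partners of neurexins and neuroligins, 0 were lower and 2 higher at an unadjusted p under 0.05 (all genes, 3.46% and 1.95%), with a median log2 difference of 0.017. These were Apba1 (Mint1) and Lin7b, adaptors of the complex that the neurexin tail binds through CASK. Apba1 had 408 ± 16.2 and 425 ± 11.1 CPM (SD, n = 8 each; log2 difference 0.059, limma adjusted p = 0.91), and Lin7b had 33.4 ± 3.28 and 36.2 ± 2.64 CPM (SD, n = 8 each; log2 difference 0.12, limma adjusted p = 0.91). In the two-sided exact permutation test the unadjusted p was 0.023 for Apba1 and 0.073 for Lin7b, which did not pass. Over these lists 0 genes had an adjusted p under 0.05.

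Summed levels of cell type markers overlapped between the genotypes. Neuron markers summed to 8081 to 8433 CPM in ChR2-flfl and 8087 to 8349 CPM in Avil-ChR2 cortices, astrocyte markers to 1517 to 1917 and 1728 to 1975 CPM, and oligodendrocyte lineage markers to 402 to 548 and 416 to 533 CPM. Microglia markers summed to 239 to 321 and 237 to 296 CPM, endothelial markers to 199 to 226 and 201 to 241 CPM, red blood cell markers to 227 to 465 and 237 to 357 CPM, and thalamic markers to 61.7 to 77.6 and 59.2 to 67.5 CPM. The 10 neuron markers split into 3 lower and 7 higher ones, and their log2 differences had a median of 0.011. By limma, 1 lower and 1 higher marker passed an unadjusted p under 0.05, as 3.46% and 1.95% of all genes did. The lower one was Map2 (log2 difference -0.077, limma adjusted p = 0.91). The higher one was Slc17a7, the vesicular glutamate transporter of cortical excitatory neurons (log2 difference 0.11, limma adjusted p = 0.88). In the exact permutation test the p was 0.046 for Map2 and 0.057 for Slc17a7. Of the 6 listed choroid plexus markers 4 were tested, and 2 were lower and 2 higher. At an unadjusted p under 0.05 in limma 0 of them were lower and 1 was higher (all genes, 3.46% and 1.95%). This was Ttr, with values in 14 of 16 pups and the missing ones set to -5 on the log2 scale. It had 0.118 ± 0.132 and 0.319 ± 0.374 CPM (SD, n = 8 each; log2 difference 1.33, limma adjusted p = 0.91, unadjusted p = 0.049, exact permutation p = 0.088). The microglia marker P2ry12 and the red cell marker Alas2 were empty in all pups and lie inside other entries.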

How the data were processed

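RNA of 16 cortices was sequenced with stranded mRNA libraries. According to the paper's methods, the authors trimmed adapters, mapped reads (minimum 50 bp) with SeqMan NGen 17 against GRCm38 (mm10) and took reads per gene from ArrayStar 17. The submitters' processing notes name edgeR, and the deposited values are CPM scaled with TMM factors, written with decimal commas. Whether the counting used the strand, and how reads of overlapping genes were assigned, is not given in the sources used here. Each value was a whole multiple of that of 1 read (100% of values of up to 20000 reads, tolerance 0.05), which gave the reads per gene. Depth covers counting error only, as PCR copies were not marked.

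CPM were log2 transformed without a pseudocount, values missing or below -5 were set to -5, and genes above -5 in at least 12 of 16 pups were kept. The comparison of genotypes used limma 3.58.1 (lmFit, eBayes with trend; R 4.3.3) over all 21183 genes kept, with Benjamini-Hochberg adjustment. Sex and its interaction with genotype were added as terms with the sexes of the labels. Single genes were also tested by two-sided exact permutation over the pups. Litters were not given and were not used. Lengths come from GENCODE M21, coordinates from the deposited table, and windows before start sites from RefSeq, which held 10 windows for 6 of the 9 genes. An entry was called nested when it lies wholly inside another entry. Older symbols were matched through RefSeq synonyms.

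The 9 genes, the lists and the tests were chosen with earlier results of these data known. The text names the 9 genes, Avil, sex-linked genes, the catenins, genes of the pathway lists at an unadjusted p under 0.05, and the genes most alike (3 for Nrxn3, 1 for the others). Map2, Slc17a7, Ttr, Flrt1, Flrt3, Lrrc4, Lrfn4 and the entries that overlap a gene were named after their values were seen. On simulated data 200 of 21183 genes, picked from those with higher values, were changed between Avil-ChR2 and ChR2-flfl. Limma found 2.5% of those shifted by 0.1 on the log2 scale, 78.5% at 0.25 and 96.5% at 0.5. False calls were 0, 8 and 10. With none changed limma called 0 genes. Each gene was simulated on its own, without the variation that genes of the real pups share, so these rates may not hold for the real data or for low genes.

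Alternatives were other filters, log2(value + 1), drawn missing values (shifted by 1.8 SD, width 0.3 SD), other normalizations, covariates, a replicate block, each run of pup numbers alone, each pup left out, voom, and other lengths. The authors' values of all 16 columns were used. Some markers of cortical identity are not reported here.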

Additional observations from a re-analysis of the deposited data

Results flagged for a closer look

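In each of the 12 sets of 8 pups, a gene and a genotype each, the gap between the most extreme pup and its neighbour was compared with the range of the set. Chance flags about 1 in 20 such sets. Both that stood out belong to ChR2-flfl replicate 7. Nlgn1 was at 145 CPM in this pup and at 131 CPM in the next one (gap over range 0.547, above Dixon's critical value at the 95% level). Lrrtm4 was at 50.9 CPM in this pup and at 44.2 CPM in the next one (gap over range 0.54, above it as well). The same pup had the highest slope on gene span, 0.97 log2 CPM per 10-fold span. Without it, the log2 difference between Avil-ChR2 and ChR2-flfl was -0.017 for Nlgn1 and 0.014 for Lrrtm4.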

How the results depend on the processing

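Nrxn3 kept its lower value in all alternatives, and each of the 6 genes kept an adjusted p above 0.05. The log2 difference turned with the slope on gene span as covariate for Nrxn2 (-0.10), Nlgn1 (0.023), Nlgn2 (-0.037) and Lrrtm4 (0.036), and in pups 35 to 42 alone for Nrxn2 (-0.047) and Nlgn2 (-0.014); the cause was not tested. With each pup left out in turn, it ranged from -0.014 (without Avil-ChR2 replicate 3) to 0.066 for Nrxn2, from -0.044 to 0.014 (without ChR2-flfl replicate 7) for Lrrtm4, from -0.059 to -0.017 for Nlgn1, from 0.00043 to 0.036 for Nlgn2, from 0.038 to 0.076 for Nlgn3 and from -0.13 to -0.11 for Nrxn3. Nrxn2 was also below 0 without ChR2-flfl replicate 4 (-0.0045), ChR2-flfl replicate 7 (-0.0078), Avil-ChR2 replicate 1 (-0.0084) or Avil-ChR2 replicate 8 (-0.0026). The interaction of Lrrtm4 was -0.015 with Avil-ChR2 replicate 4 taken as male. Of all genes, 2 had an adjusted p under 0.05, and 1 had it after median centring, with the slope as covariate, with the replicate block, in pups 26 to 33 alone, in pups 35 to 42 alone and with voom. The count was 1 or 2 with each pup left out, and 3 with the run of pup numbers as covariate, 1.5 times the main count. At an unadjusted p under 0.05, 446 genes were lower and 226 higher in pups 26 to 33 alone, against 732 and 413 over all pups. With each pup left out these counts lay between 585 and 959 (lower) and between 322 and 622 (higher), both highest without ChR2-flfl replicate 2.

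The genotypes share replicate numbers 1 to 8, which name different animals. Over 15137 genes, deviations of same-numbered pups correlated with r from -0.34 to 0.39, and 1 of 8 pups matched its own number best. With the replicate block the Nrxn3 difference was -0.12 (limma adjusted p = 0.91), and 708 genes were lower and 383 higher at an unadjusted p under 0.05.

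Levels per kb in ChR2-flfl cortices moved with the length taken. Over the union of exons they were 43.4 CPM for Nrxn2, 12.6 for Nrxn3, 9.58 for Nlgn1, 10.1 for Nlgn3 and 6.97 for Lrrtm4. Over the median transcript they were 199 for Nrxn2, 48.2 for Nrxn3, 30.1 for Nlgn1, 109.8 for Nlgn2, 19.0 for Nlgn3 and 14.1 for Lrrtm4. Over the gene span, added after seeing the data like voom, they were 5.24 for Nrxn2, 0.0987 for Nrxn3, 0.143 for Nlgn1, 20.8 for Nlgn2, 4.22 for Nlgn3 and 0.0541 for Lrrtm4. The planned edgeR test was not run, and voom on the recovered reads was added in its place.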

Other observations

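Xist, the X inactivation transcript that is often used to check sex labels, is a further entry inside another and lies within Tsix on the opposite strand. It had values in 2 of the 16 pups, 571 CPM in Avil-ChR2 replicate 3 and 0.208 CPM in ChR2-flfl replicate 7. The Tsix entry was at 242 CPM in Avil-ChR2 replicate 3, the pup with Xist at 571 CPM, and at 0.523 CPM in Avil-ChR2 replicate 4. In the remaining pups labelled female it was at 719 to 932 CPM, and in the 7 pups labelled male at 0.166 to 0.66 CPM. Whether reads of Xist were counted under Tsix was not tested, so the Tsix values were not read as expression of Tsix.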
